A study of Mus musculus with 2 samples.

Results

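The immediate early response genes examined here were Fos, Fosb, Jun, Junb, Egr1, Egr2, Nr4a1, Atf3, Ier2 and Dusp1. They were taken as every non-control probe on the arrays that carried 1 of these 10 names, which gave 10 probes, 1 for each gene, out of 39429 probes. Fos was printed in 10 spots and each other gene in 1, so the members held 19 of 43020 spots. All 10 probes were well above background in both channels of both arrays, so all 10 genes were among the 20506 tested, and none had a saturated spot or an outlier flag.

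RNA of E14.5 ureters from mice of the NMRI strain was hybridised to 2 dye-swapped 2-colour arrays. The RNA labelled Gata2cKO came from embryos with the genotype Tbx18(cre/+);Gata2(fl/fl), in which 1 Tbx18 allele makes Cre recombinase in the mesenchyme around the ureter and both Gata2 alleles are flanked by loxP sites. The control RNA came from embryos labelled Tbx18(+/+);Gata2(fl/?), which had no Cre and at least 1 floxed Gata2 allele. On array 1 both RNAs were female, with the Gata2cKO RNA in Alexa Fluor 647 and the control in 555. On array 2 both were male and the dyes were exchanged. Sex and dye orientation therefore changed together, and the effects of Cre, of the Tbx18 allele that carries it and of the loss of Gata2 cannot be told apart. How many embryos were pooled for an RNA is unknown here. The 2 arrays are the only replicates. The p-values rest on the spread between them, which limma takes mostly from all genes and which may be technical in part.

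Immediate early genes are transcribed within minutes of a signal, without the need for new protein. Kinase cascades act on factors already bound at their promoters, chiefly serum response factor with its ETS partners and CREB, and the transcripts are short-lived. Most of the products are transcription factors that pass the signal on, while others, such as the phosphatase encoded by Dusp1, end it. These genes are also known to be induced when tissue is cut, warmed or dissociated, which makes them sensitive to how a tissue is dissected.

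All 5 genes of the ureteric mesenchyme list, all 5 of smooth muscle and all 7 of urothelium were well above background on both arrays in at least 1 of the RNAs. The same held for every listed marker of endothelium (5), macrophages (6), erythroid cells (4), neurons and glia (6), nephron progenitors (3) and skeletal muscle (3). Detection therefore does not tell the ureter from other tissue. Median spot signals were 433 for the control and 754 for the Gata2cKO RNA on array 1, and 754 and 428 on array 2, so the 647 channel was the brighter one on each. The probe for Gata2 did not check the label, with log2 ratios of Gata2cKO over control of 0.33 on array 1 and 0.54 on array 2 (limma adjusted p = 0.409), and where the probe lies relative to the deleted stretch is unknown here. Tbx18, of which the Gata2cKO embryos keep 1 intact allele, was at 0.65 and 0.15 (limma adjusted p = 0.660). Directions below therefore rest on the dyes given in the labels. Over all genes tested, 18 passed an adjusted p of 0.05 by limma, which is 0.0878%, and 9 of them were higher in the Gata2cKO RNA, which is 0.0439%.

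The promoter sequences of several members are shown first, searched for motifs of the kinds through which immediate early genes are known to be induced. RefSeq promoters of the build GRCm38.p6 were searched for 8 of the 10 members, over the 250 bases before the annotated start and on both strands. Egr1 and Ier2 were not searched, so the counts below say nothing of their promoters. The core of the cAMP response element, TGACG, was in a window of 7 of the 8 genes, namely Fos, Fosb, Junb, Egr2, Nr4a1, Atf3 and Dusp1, against 17.8% of 32851 promoter windows of the same length. The full palindrome TGACGTCA, which contains that core, was found in Dusp1 alone of the 8 genes and in 1.55% of all windows. The GC box GGGCGG was in a window of 7 genes, and in 32.7% of all windows. The serum response element (CArG box) was found within this distance in Egr2 alone of the 8 genes searched and in 1.47% of all windows. TATAAA was found in Fos alone (12.4% of all windows). The AP-1 site TGACTCA, the NR4A site AAAGGTCA and the EGR site GCGTGGGCG were in none of the 8 and in 4.46%, 1.34% and 0.536% of all windows. The GATA motif TGATAA was in the Atf3 window and AGATAA in the Jun window, against 7.94% and 9.99% of all windows. Egr2 has 5 entries with partly overlapping windows and so had more chances of a match than the others, which have 1 each. A match says only that the letters are present.

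The 150 bases before the start are given 5′ to 3′ for the 4 members with the largest ratios among these 8, and for Dusp1, with the core element on either strand, its palindrome and the TATA element in capitals. The windows lie at chr12:85473740-85473889 on the plus strand (Fos), chr7:19310046-19310195 on the minus strand (Fosb), chr15:101266696-101266845 on the plus strand (Nr4a1), chr1:191183334-191183483 on the minus strand (Atf3) and chr17:26508473-26508622 on the minus strand (Dusp1), all in GRCm38.p6.
Fos: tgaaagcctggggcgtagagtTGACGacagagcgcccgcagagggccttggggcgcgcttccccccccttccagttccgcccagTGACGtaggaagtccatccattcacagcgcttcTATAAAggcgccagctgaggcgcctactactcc
Fosb: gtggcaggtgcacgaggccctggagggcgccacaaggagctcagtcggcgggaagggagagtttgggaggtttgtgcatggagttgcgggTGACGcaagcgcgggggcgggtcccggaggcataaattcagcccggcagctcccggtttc
Nr4a1: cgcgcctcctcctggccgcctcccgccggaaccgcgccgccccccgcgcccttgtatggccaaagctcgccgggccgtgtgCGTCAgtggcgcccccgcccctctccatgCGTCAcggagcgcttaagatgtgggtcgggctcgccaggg
Atf3: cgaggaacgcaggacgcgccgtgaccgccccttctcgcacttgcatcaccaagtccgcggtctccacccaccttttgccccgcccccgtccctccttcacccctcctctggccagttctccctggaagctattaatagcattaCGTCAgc
Dusp1: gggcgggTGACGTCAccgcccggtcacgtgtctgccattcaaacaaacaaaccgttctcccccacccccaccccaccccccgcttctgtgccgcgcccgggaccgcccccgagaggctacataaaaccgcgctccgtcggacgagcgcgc
In Fos the cores begin 129 and 66 bases before the start, the latter followed by the TATA element at 33. Fosb has 1 core, 60 bases before the start, and Nr4a1 has cores at 69 and 40 within the printed stretch and 2 more at 233 and 213. In Atf3 the core lies 7 bases before the start, and in Dusp1 the palindrome begins 143 bases before it, with a further core at 191. For Egr2 the 30 bases around the CArG box that 3 of its 5 entries share, at chr10:67537789-67537818 on the plus strand, are shown with the box and the neighbouring core in capitals.
Egr2: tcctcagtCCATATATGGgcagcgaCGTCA

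As a group the members had a median log2 ratio of Gata2cKO over control of 0.31, with 0.37 on array 1 and 0.26 on array 2, while the median of all genes tested was 0.0028. Fosb, Egr1, Fos, Atf3 and Nr4a1 were each 1.30-fold to 1.45-fold higher in the Gata2cKO RNA, and positive on each array. Egr2 and Junb were on the positive side on both arrays by smaller amounts. Dusp1 was higher on array 1 alone, and Jun and Ier2 had mean ratios near 0. None of the 10 passed an adjusted p over all genes by limma, where 0.0878% of genes did. Their lowest adjusted p was 0.363 (Egr1). At an unadjusted p of 0.05 by limma, 5 of the 10 were higher and 0 lower, against 3.75% higher and 3.41% lower of all genes (7.17% in either direction). The list of members was put together with earlier results of these arrays known, and the counts describe it without testing it.

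**Figure D1:**
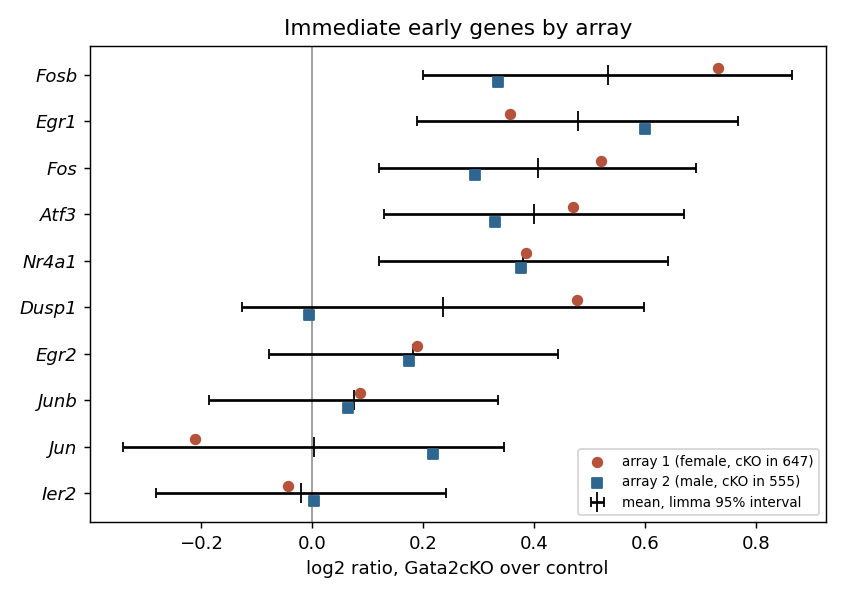
Log2 ratio of Gata2cKO over control for each member (x axis), on array 1 (circles) and array 2 (squares), with the mean of both as a tick and its limma 95% interval as a bar. Fosb, Egr1, Fos, Atf3 and Nr4a1 have intervals above 0, Dusp1 and Jun have their arrays far apart, and no interval reaches a log2 ratio of 1.

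Levels are given below as log2 normalised signal, after loess within each array and a scaling of the arrays to each other, and are comparable for 1 probe only, not between genes. The AP-1 family is described first. Fos encodes the subunit that pairs with Jun proteins, and its probe lies on chromosome 12 from 86817900 to 86817959 (mm9, plus strand). Its normalised signal was 13.82 in the control and 14.34 in the Gata2cKO RNA of array 1, and 14.19 and 14.48 on array 2. Both Gata2cKO values lay above both control values. Array 1 gave a log2 ratio of 0.52 and array 2 one of 0.29, and their average was 0.41 ± 0.161 (SD, n = 2 arrays), or 1.33-fold, with a limma 95% interval from 1.09-fold to 1.62-fold (unadjusted p = 0.0135, adjusted p = 0.453).

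The 10 spots of the Fos probe show how precisely 1 array measures its ratio. On array 1 they ran from 0.46 through a median of 0.51 to 0.60, with an SD of 0.0461, and on array 2 from 0.23 through 0.29 to 0.34, with an SD of 0.0360. The spots of the arrays did not overlap, and the gap between the array means, 0.23, was wider than the spread within either. Among 350 probes with at least 9 usable spots on array 1 the median SD was 0.0501, and among 360 on array 2 it was 0.0512. The spots of 1 array share 1 pair of RNAs and count as 1 replicate.

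Fosb encodes a second Fos-type subunit, and its probe lies on chromosome 7 from 19888168 to 19888227 (mm9, minus strand). It had the highest mean ratio of the 10. Its signal was 13.73 in the control and 14.46 in the Gata2cKO RNA of array 1, and 14.44 and 14.78 on array 2. The Gata2cKO values lay above both controls, although by only a small margin over the control of array 2, and the control values were themselves 0.72 apart. The log2 ratios of 0.73 and 0.33 gave a mean of 0.53 ± 0.281 (SD, n = 2), or 1.45-fold, with a limma 95% interval from 1.15-fold to 1.82-fold (adjusted p = 0.379).

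Jun and Junb encode the partners of Fos proteins, Junb being a weaker activator that can hold Jun back. The Jun probe lies on chromosome 4 from 94716928 to 94716987 and the Junb probe on chromosome 8 from 87501881 to 87501940, both on the minus strand of mm9. The signal of Jun was 13.67 in the control and 13.46 in the Gata2cKO RNA of array 1, and 13.38 and 13.60 on array 2. The arrays thus pointed in opposite directions, with log2 ratios of -0.21 and 0.22, and the mean of 0.0031 ± 0.303 (SD, n = 2) had a limma 95% interval from 0.79-fold to 1.27-fold. On both arrays Jun was brighter in the 555 channel after normalisation, as were 4877 of the 20506 genes tested. Junb was at 9.62 in the control and 9.71 in the Gata2cKO RNA of array 1, and at 9.87 and 9.93 on array 2. Its log2 ratios of 0.09 and 0.06 were close to each other, and its interval ran from 0.88-fold to 1.26-fold (limma adjusted p = 0.953).

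Atf3 encodes a basic leucine zipper factor of the ATF/CREB family that is induced by many stresses, and its probe lies on chromosome 1 from 192994547 to 192994606 (mm9, minus strand). Its signal was 11.51 in the control and 11.99 in the Gata2cKO RNA of array 1, and 11.95 and 12.28 on array 2. Both Gata2cKO values again exceeded both control values, by a margin of 0.04 between the nearest pair taken from different arrays. The log2 ratios of 0.47 and 0.33 averaged 0.40 ± 0.0995 (SD, n = 2), or 1.32-fold, with a limma 95% interval from 1.09-fold to 1.59-fold (adjusted p = 0.429).

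The EGR genes encode zinc finger factors induced by growth factors and by nerve activity. The Egr1 probe lies on chromosome 18 from 35024395 to 35024454 and the Egr2 probe on chromosome 10 from 67004798 to 67004857, both on the plus strand of mm9. The signal of Egr1 was 14.52 in the control and 14.87 in the Gata2cKO RNA of array 1, and 14.80 and 15.40 on array 2. Both Gata2cKO values lay above both controls, and its ratio was the larger on array 2, unlike those of Fos, Fosb and Atf3. Its log2 ratios of 0.36 and 0.60 gave a mean of 0.48 ± 0.173 (SD, n = 2), or 1.39-fold, with a limma 95% interval from 1.14-fold to 1.70-fold (adjusted p = 0.363). Egr2, which is known for its role in myelinating glia and hindbrain patterning, was at 8.32 in the control and 8.51 in the Gata2cKO RNA of array 1, and at 8.71 and 8.88 on array 2. Its ratios of 0.19 and 0.18 lay close together (only 4.58% of genes had a smaller gap), and the mean of 0.18 had a limma 95% interval from 0.95-fold to 1.36-fold (adjusted p = 0.794).

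Nr4a1 encodes an orphan nuclear receptor that needs no added ligand and is controlled by its own induction, and its probe lies on chromosome 15 from 101105071 to 101105130 (mm9, plus strand). Its signal was 14.44 in the control and 14.83 in the Gata2cKO RNA of array 1, and 14.87 and 15.24 on array 2. The control of array 2 lay above the Gata2cKO RNA of array 1, so the groups overlapped when arrays were mixed, while within each array the ratio was nearly identical. The log2 ratios of 0.39 and 0.38 gave a mean of 0.38 ± 0.00566 (SD, n = 2), or 1.30-fold, with a limma 95% interval from 1.09-fold to 1.56-fold (adjusted p = 0.434). The small SD of a single pair of arrays is itself poorly known, and limma replaced most of it with the spread typical of all genes.

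Ier2, which encodes a nuclear protein, and Dusp1, which encodes a phosphatase that inactivates MAP kinases, complete the members. The Ier2 probe lies on chromosome 8 from 87186214 to 87186273 (mm9, minus strand). It was at 14.57 in the control and 14.52 in the Gata2cKO RNA of array 1, and at 14.70 in both on array 2. Its mean log2 ratio was -0.02, with a limma 95% interval from 0.82-fold to 1.18-fold. The file places the Dusp1 probe on chromosome 17 from 26642526 to 26642536 (mm9, minus strand). That stretch is shorter than for any other member and may not be the whole probe. Dusp1 was at 12.54 in the control and 13.02 in the Gata2cKO RNA of array 1, and at 12.87 in both on array 2. Array 1 alone held its difference, with a log2 ratio of 0.48 against -0.0060 on array 2. It was the 1 member of 10 brighter in 647 on each array, against 23% of all genes. With the dyes swapped, only the 3 members with opposite signs on the arrays could be so. The mean of Dusp1 was 0.24 ± 0.342 (SD, n = 2), with a limma 95% interval from 0.92-fold to 1.51-fold (adjusted p = 0.812).

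**Figure D2:**
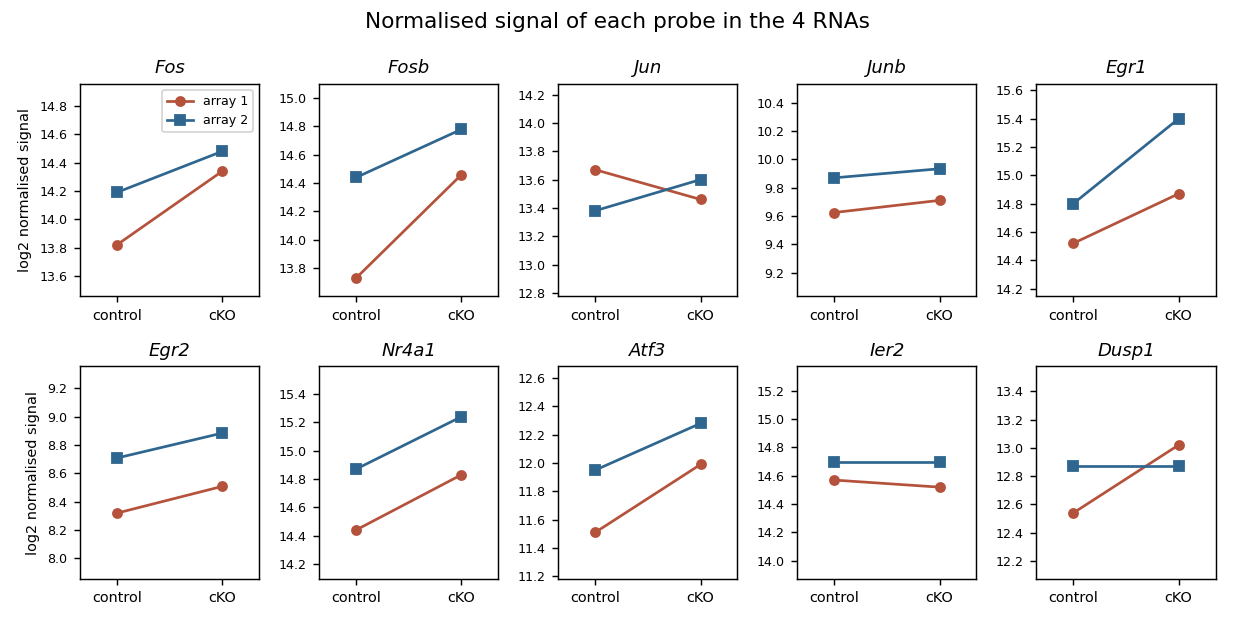
Log2 normalised signal (y axis) of each member in the control and Gata2cKO RNA of array 1 (circles) and array 2 (squares), with a line joining the RNAs of 1 array. Each panel spans 1.5 log2 units around its own mean, and the lines slope upwards on both arrays for all members but Jun, Ier2 and Dusp1.

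The limma intervals rest on the spread between the 2 arrays, taken mostly from all genes, under 1 way of processing. They do not cover the differences between sources of values described below. For all 10 members the interval excluded a 2-fold difference in either direction, and for 4, Jun, Junb, Egr2 and Ier2, it also excluded a 1.5-fold one. Counted by sign, 7 members were higher and 0 lower on both arrays, against 27% and 26.2% of all genes, and 3 had opposite signs on the arrays, against 46.8%. At least 1.2-fold on both arrays in the positive direction, a size chosen after the values were seen, 5 members were counted against 2.14% of all genes. No overlap between the 4 normalised levels, with both Gata2cKO values higher, was found for Fos, Fosb, Egr1 and Atf3, against 19.5% of all genes. At 1.5-fold on both arrays no member was counted, against 0.273% of all genes.

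Of the 10 members, 5 lay among the brightest 25% of genes, namely Fos, Fosb, Egr1, Nr4a1 and Ier2. The first 4 of them were at least 1.2-fold higher on both arrays, against 1.05% of the 5127 genes that bright, and had an unadjusted p under 0.05 by limma, against 2.09%. Among genes that bright, 21.5% were higher in the Gata2cKO RNA on both arrays, and for 25% the 647 channel was the brighter one on each. None of these 5 members was brighter in 647 on each array. For the 4 that were higher on both arrays this follows from the dye swap, so it tells nothing of a dye effect. The difference between the arrays' ratios was 0.23 for Fos, 0.40 for Fosb, -0.24 for Egr1, 0.14 for Atf3 and 0.0080 for Nr4a1, and was widest for Dusp1 (0.48) and Jun (-0.43). How much of it belongs to sex and how much to dye cannot be told apart.

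**Figure D3:**
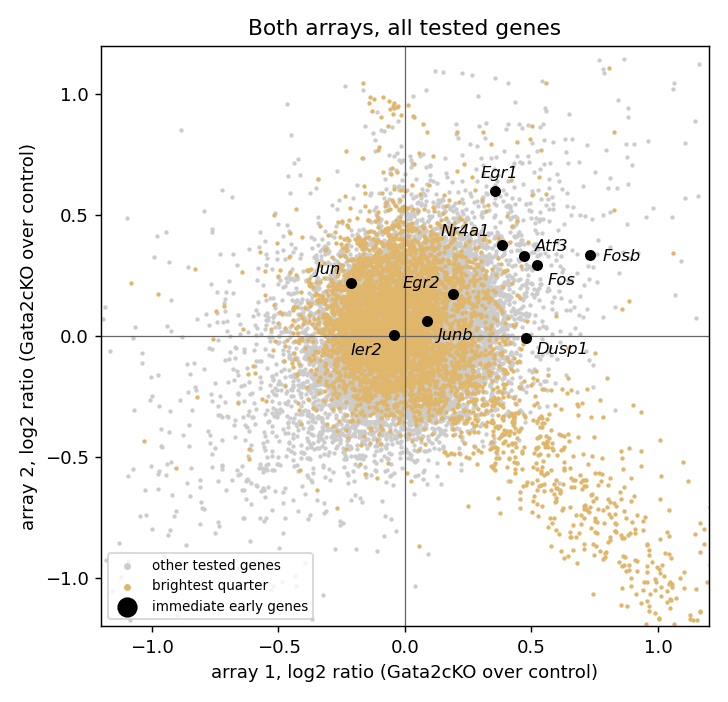
Log2 ratio of Gata2cKO over control on array 1 (x axis) against array 2 (y axis) for the 20506 genes tested, with the brightest 25% of genes in ochre, the others in grey and the 10 members in black. Atf3, Fos, Fosb, Nr4a1 and Egr1 lie to the upper right, above 0 on both axes, and 124 genes lie outside the axes.

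The members' levels also differed between the arrays. Averaged over the control and Gata2cKO RNA of an array, the log2 normalised signal was higher on array 2 than on array 1 for 9 of 10 members, against 49.9% of all genes, and at least 1.2-fold higher for 5, against 3.44%. The differences of array 2 minus array 1 were 0.52 for Fosb, 0.42 for Nr4a1, 0.40 for Egr1, 0.38 for Egr2 and 0.37 for Atf3. Smaller ones were seen for Fos (0.26), Junb (0.23), Ier2 (0.15) and Dusp1 (0.09), and Jun was at -0.08. In Jun and Dusp1 the RNAs went opposite ways, the control by -0.29 and 0.33 and the Gata2cKO RNA by 0.14 and -0.16. The median over the members was 0.31, as large as their median ratio between the genotypes. Between the control RNAs alone the differences reached 0.72 (Fosb) and 0.44 (Atf3). The arrays differed in sex and in hybridisation, each with 1 pair of RNAs, so this difference has no replicate and was not tested.

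The members' ratios were set side by side from 3 sources of values. With the scanner software's processed signals, Fos was at 0.56 and 0.24 on the arrays, Fosb at 0.77 and 0.27, Egr1 at 0.39 and 0.53, Nr4a1 at 0.43 and 0.31 and Atf3 at 0.44 and 0.38, close to the loess values. In the authors' deposited table, as a log2 of the signed fold, all 10 members were below 0 in the column of array 1, against 52.9% of genes tested, and 8 were above 0 in that of array 2, against 52.5%. The 8 were below 0 in the first column and above 0 in the second, against 31.5%. In that table Nr4a1 was at -0.59 and 0.48, Fosb at -0.45 and 0.59, Atf3 at -0.40 and 0.66, Egr1 at -0.05 and 0.13, and Fos at -0.11 and -0.01. In the authors' deposited table none of the 10 was positive in both columns, and the means were below 0 for 6 members and above 0 for 4. The table's centring and direction are not stated. It was read as Gata2cKO over control because its columns correlated with the loess ratios at r = 0.506 and 0.439 across 20506 genes, which are not independent replicates. Of the 3654 genes at least 1.2-fold on array 1, 19.2% had the opposite sign in its first column. The scanner files were used for every other value here, and the direction of the members depended on which source was taken.

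**Figure D4:**
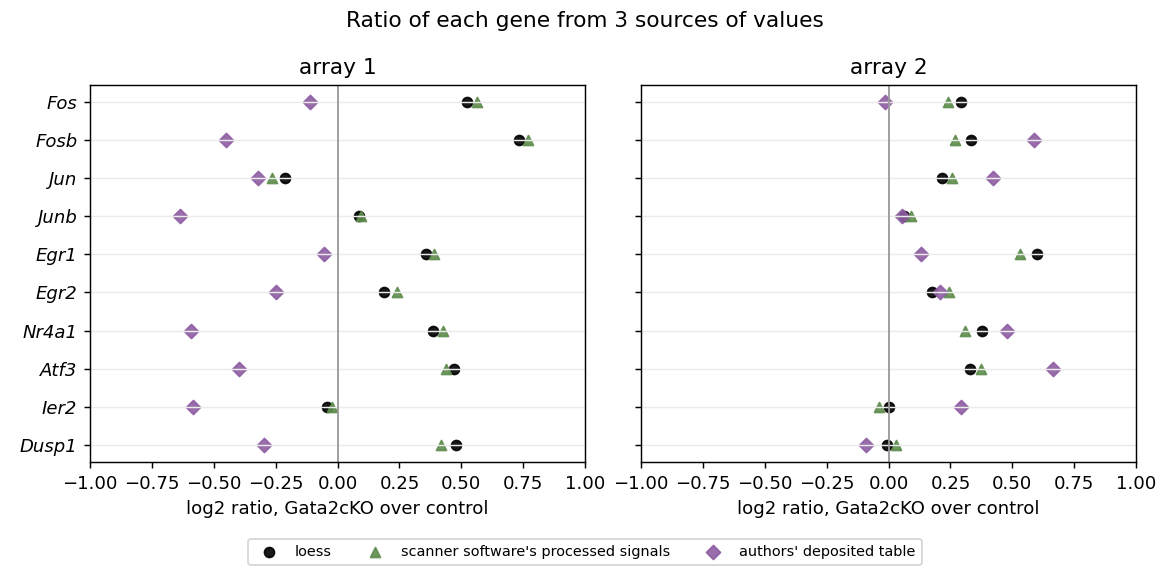
Log2 ratio of Gata2cKO over control (x axis) of each member on array 1 (left) and array 2 (right), from the loess-normalised signals (circles), the scanner software's processed signals (triangles) and the authors' deposited table (diamonds). Circles and triangles lie close together, while on array 1 all 10 diamonds lie below 0.

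A longer list of related immediate early genes held 48 names, of which 43 were tested. Their median log2 ratio was 0.03, with -0.03 on array 1 and 0.0056 on array 2, beside 0.0028 for all genes. Of the 43, 12 were higher and 15 lower on both arrays, against 27% and 26.2% of all genes, and 0 passed an adjusted p by limma in either direction (2 higher and 1 lower at an unadjusted p of 0.05). The list also holds the closest relatives of the members. Jund, which encodes another Jun protein, was at -0.19 and 0.03 on the arrays, Fosl2, a Fos relative, at 0.10 and 0.14, and the nuclear receptor gene Nr4a2 at 0.0006 and 0.14. Fosl1, Egr3, Egr4, Nr4a3 and Ptgs2 were not well above background in any of the 4 channels and were not tested. Among listed genes whose sign did not differ between arrays, the largest ratios were those of Errfi1, an inhibitor of EGF receptor signalling (0.22 and 0.49), Btg2, which restrains proliferation (0.60 and 0.08), and Npas4, a neuronal activity gene (-0.10 and -0.51).

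The upstream regulators, meaning serum response factor and its partners, CREB-type factors and the MAP kinases, were all tested (21 of 21). Their median log2 ratio was 0.02, with 8 higher and 3 lower on both arrays, against 27% and 26.2% of all genes. By limma 0 passed an adjusted p and 0 an unadjusted p of 0.05, which 7.17% of all genes did. Srf was at 0.08 and -0.12 on the arrays. The largest ratios with 1 sign were those of Atf1, a relative of CREB (0.41 and 0.15), the kinase gene Map2k2 (-0.24 and -0.21) and the JNK gene Mapk8 (0.12 and 0.22). Heat shock genes, which are also known to respond to tissue handling, had 12 of 13 tested and a median of 0.10, with 0.16 on array 1 and 0.06 on array 2. Of the 12, 5 were higher and 1 was lower on both arrays, against the same 27% and 26.2%. By limma 0 passed an adjusted p, and 1 was higher and 1 lower at an unadjusted p of 0.05, against 3.75% and 3.41% of all genes. The chaperone genes Hsp90aa1 (0.18 and 0.43) and Hspa5 (0.37 and 0.06) and the haem oxygenase gene Hmox1 (-0.27 and -0.29) had the largest ratios of 1 sign. These lists were also drawn up with earlier results of these arrays known.

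**Figure D5:**
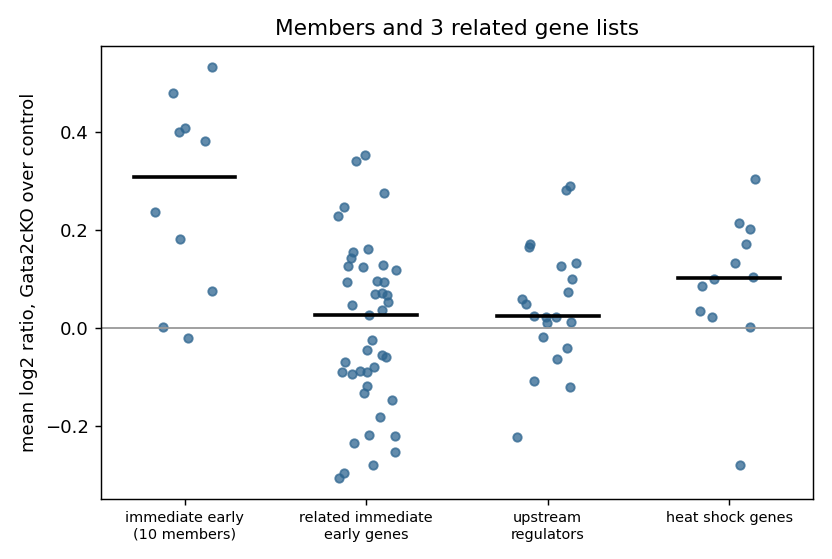
Mean log2 ratio of Gata2cKO over control (y axis) of the 10 members and of the tested genes of 3 lists, each point a gene and each bar the list's median. The medians are 0.31 for the members, 0.03 for the related immediate early genes, 0.02 for the upstream regulators and 0.10 for the heat shock genes.

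Markers of several cell types differed between the RNAs as well, and their part in the members' ratios was not tested. Of the 7 urothelial markers, 5 had positive ratios on array 1 and array 2 alike (median log2 ratio 0.26), and the 3 markers of nephron progenitors of the kidney were all higher, with a median of 0.21 and Six2 at 0.23 and 1.09. Of the smooth muscle markers 5 of 5 were lower on both arrays (median -0.85), as were 5 of 6 macrophage markers (-0.32), 5 of 6 neuron and glia markers (-1.15) and 3 of 3 skeletal muscle markers (-0.83). By limma 1 of all these markers, the neuronal gene Prph, passed an adjusted p of 0.05 (adjusted p = 0.0380). Endothelial markers had a median of -0.0012 and erythroid markers of -0.15. The 5 ureteric mesenchyme markers had a median of -0.08, with 2 higher on both arrays, 1 lower on both and 2 of opposite signs. In bulk tissue, fewer cells of a type and less RNA per cell cannot be told apart.

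Genes were ranked by how near their pair of array ratios lay to that of Fos, by Euclidean distance over the 2 arrays. Names of clone, predicted or accession type, such as those ending in Rik or starting with Gm or LOC, were set aside. The ranking and the counts below leave them out, although some lay as near. The nearest of the rest were D13Ertd787e (0.50 and 0.28), Rnf186 (0.50 and 0.27), Slc1a3 (0.49 and 0.28), Agtpbp1 (0.48 and 0.28) and Phf20l1 (0.48 and 0.30). Of these, D13Ertd787e is itself a provisional type of name that the rule did not catch. The distances of the genes named were 0.0250 to 0.0421. With only 2 arrays many genes come this close, and 43 lay within 0.1. Among the members Atf3 was nearest to Fos, at 0.0624, with 17 other genes nearer. Nr4a1 followed at 0.160 and Fosb at 0.214, with 104 and 223 genes nearer.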

How the data were processed

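Per the file headers, the slides carried Agilent design 026655 and were quantified with Feature Extraction 10.7.3.1 (protocol GE2_107_Sep09). Probe coordinates are those of mm9. The deposited scanner files hold each spot's mean and background intensity, linear and not normalized, beside processed intensity, background-subtracted and dye-normalized per the file headers. Their deposited log10 ratio compares red with green processed signals. The authors' deposited value table holds a signed fold per probe, with a median of 1 in both columns. Values of exactly 1 made up 28% of the column of array 1 and 28.3% of that of array 2. How the table was made is unknown here.

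Mean signals were corrected by normexp (offset 50), and loess (span 0.3) was applied within each array, giving control spots and outlier-flagged spots weight 0. Array 2 was turned to run Gata2cKO over control. Replicate spots were averaged by probe. A probe was kept if 1 of the RNAs was well above background on both arrays, and the brightest probe stood for a gene. Names were updated through RefSeq accessions for 26412 of 39429 probes. Ratios of 20506 genes were compared with 0 by limma 3.58.1 (R 4.3.3; lmFit, eBayes), two-sided, adjusted after Benjamini and Hochberg at 0.05. The residual degrees of freedom were 1, and the prior supplied 4.68. A second fit over all 25657 probes kept called no member either. With 2 arrays no dye or sex term could be fitted. Levels were taken per channel after loess and Aquantile. The functions were tested on simulated data. Figures were drawn with matplotlib 3.10.9.

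The genes named were the members, their family relatives, up to 6 genes past the threshold or else the 3 largest ratios of 1 sign in each list, Gata2 and Tbx18 as label checks and the 5 genes nearest to Fos. For the last, names of clone, predicted or accession type were set aside. The members and lists were chosen with earlier results of these data known.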

Additional observations from a re-analysis of the deposited data

How the results depend on the processing

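None of the 10 members passed an adjusted p of 0.05 under any alternative that gave a test; the lowest was 0.0532 by limma, for Fosb with a trended and robust prior. Fosb, Egr1 and Atf3 kept a positive mean under all 13 alternatives, but in the authors' deposited table it was only 0.069, 0.039 and 0.13. Of the 13, the loess spans of 0.1 and 0.7 were added after seeing the data. Aquantile scaling, both changes of filter, probe means and the trended and robust prior left every member's mean as it was. Those settings could not change the sign of a gene with 1 probe, so they say nothing of its stability. Jun was at -0.0034 with the scanner's processed signals, -0.021 with median centring, and -0.21 to 0.22 when either array was left out, where Dusp1 ran from -0.0060 to 0.48 and Ier2 from -0.043 to 0.0030. In the authors' deposited table Fos was at -0.062, Junb at -0.29, Egr2 at -0.021, Nr4a1 at -0.058 and Dusp1 at -0.19, the members' median was -0.040 and the count higher on both arrays was 0. The cause was not tested. Elsewhere that count was 6 to 8 of 10, or 8 to 9 on a single array. With median centring the ratios on array 2 were 0.05 for Fos, 0.07 for Fosb and 0.04 for Nr4a1. The count of all genes past the threshold was 3 without background correction, 173 with processed signals, 0 with median centring (492 at an unadjusted limma p of 0.05), 54 with no filter on detection, 35 with the stricter filter, 376 with the trended and robust prior, 0 by limma on the deposited table (973), 84 with a loess span of 0.1 and 0 with 0.7 (1123). The median of the related immediate early genes was -0.043 with median centring, 0.054 as probe means, -0.097 in the deposited table and -0.033 to 0.0056 on single arrays. That of the upstream regulators was 0.011 with median centring, 0.053 in the deposited table and 0.050 to 0.061 on single arrays, and that of the heat shock genes was -0.025 in the deposited table. The ratio within each array already pairs a control with a Gata2cKO RNA, so the test of these ratios is the paired one and no further replicate block was fitted. The number of arrays limits the precision of every value.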
